A study of Mus musculus with 11 samples.

Results

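The genes described here are the globins of mouse red cells and a pair of other erythroid genes, in RNA of the mouse cortex at E14.5, an embryonic day. The 9 symbols are the embryonic globins Hbb-y, Hbb-bh1 and Hba-x, the adult globins Hbb-b1, Hbb-b2, Hba-a1 and Hba-a2, the heme synthesis enzyme gene Alas2 and the red cell anion exchanger gene Slc4a1. They were found by symbol in 9 of the 24138 loci of the expression table. Hba-a1 and Hba-a2 stand together on 2 loci, and Hbb-b1 shares its locus with Hbb-bs. RNA was sequenced from 2 libraries of the conditional knockout (cKO), with the genotype Chd8 c/c, Emx1-cre, and from 3 control libraries without Cre, of which control 1 was Chd8 c/+ and controls 2 and 3 were Chd8 c/c. Chd8 encodes a chromatin remodelling enzyme, and the floxed c alleles were carried by controls and cKO alike. The Emx1 driver acts in progenitors of the dorsal telencephalon and their progeny, a lineage that does not give rise to blood cells. The groups follow the titles and genotypes, which name Chd8, although 1 protocol field has Eed in its place. Strain and number of embryos per library are not in the labels, so the tests measure the spread between these libraries only. The 6 ATAC-seq samples of the series were not analysed here.

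Hemoglobin is a tetramer of alpha-like and beta-like globin chains, each holding a heme. In the mouse embryo the first red cells, called primitive, form in the yolk sac and carry embryonic chains, and the definitive red cells that follow from the fetal liver carry adult chains. The brain forms no red cells of its own, and globin RNA in a dissected cortex is usually read as RNA of blood in its vessels. In whole tissue, fewer red cells and less globin RNA per red cell cannot be told apart.

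The summed globin FPKM overlapped between the cKO and control libraries. FPKM, a read level scaled by transcript length and by the total of the library, was summed over the globin loci. The table does not name its unit, which was read from its values and from the naming of Cufflinks. The sum was 1979 and 2198 FPKM in cKO 1 and 2, against 1877, 2091 and 2096 FPKM in controls 1 to 3. The cKO mean was 103% of the control mean, and the highest library was 1.17 times the lowest. All 9 loci together took 0.448% and 0.528% of the library FPKM in cKO 1 and 2, against 0.447%, 0.434% and 0.476% in controls 1 to 3. On this share cKO 2 lay above every control. None of the 8 loci tested passed limma's test over all loci, where 0.0473% of 12672 loci passed at an adjusted p under 0.05, with 0.0158% higher and 0.0316% lower. None of the 8 had an unadjusted p under 0.05, as 7.45% of all tested loci did. In the authors' deposited table none of the 9 loci was marked significant, against 4.21% of the loci that the authors tested. The median log2 change of the 8 loci was 0.05, and that of all tested loci was -0.02. With 2 cKO libraries, not passing a test does not show that levels were equal.

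The whole-table facts that touch these values are few. Chd8 RNA was 19.3 and 15.1 FPKM in the cKO libraries, against 31.5, 30.02 and 31.8 FPKM in controls 1 to 3, with no overlap. Its log2 change was -0.83 (SE 0.15, limma adjusted p = 0.575), and the authors' deposited table marked it significant (q-value 0.00331). The FPKM total of a library lay between 418191 and 484296, and the depth in reads is unknown. Changes of single loci are differences of the group means of log2(FPKM + 1), cKO minus control. The added 1 makes the change of a low gene look smaller. The authors' log2 fold changes compare arithmetic means of FPKM, so they are a different measure.

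The alpha-like genes lie on chromosome 11 in the order Hba-x, Hba-a1, Hbq1b, Hba-a2 and Hbq1a, and the beta-like genes lie on chromosome 7. The stretches of 120 bases before the annotated start are shown for 3 alpha-like and 2 beta-like genes. They cover a pair of gene copies and both embryonic and adult genes, which the results below compare. They are from RefSeq (GRCm38.p6, the assembly that mm10 names), 5′ to 3′ on the gene's strand. Capitals mark 4 short motifs. They are TATAA for the TATA box, CCAAT for the box of that name, CACCC for the Krüppel-like factor box and GATAA for the site of GATA factors. Hba-x is chr11:32276480-32276599, Hba-a1 is chr11:32283552-32283671 and Hba-a2 is chr11:32296372-32296491, all on the plus strand. Hbb-y is chr7:103853208-103853327 and Hbb-bs is chr7:103827929-103828048, both on the minus strand.
Hba-x: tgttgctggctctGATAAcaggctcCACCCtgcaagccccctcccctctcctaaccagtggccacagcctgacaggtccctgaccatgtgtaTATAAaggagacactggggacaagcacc
Hba-a1: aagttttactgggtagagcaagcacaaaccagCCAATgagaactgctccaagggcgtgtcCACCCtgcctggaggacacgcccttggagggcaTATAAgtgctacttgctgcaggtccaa
Hba-a2: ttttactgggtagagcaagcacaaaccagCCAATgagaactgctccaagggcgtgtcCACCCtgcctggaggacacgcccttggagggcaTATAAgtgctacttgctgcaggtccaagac
Hbb-y: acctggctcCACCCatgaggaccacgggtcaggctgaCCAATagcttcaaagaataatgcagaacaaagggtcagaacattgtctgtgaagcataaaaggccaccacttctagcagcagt
Hbb-bs: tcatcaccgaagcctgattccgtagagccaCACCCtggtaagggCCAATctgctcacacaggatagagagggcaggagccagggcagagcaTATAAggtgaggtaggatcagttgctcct

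The windows of Hba-a1 and Hba-a2 are copies of each other. Over the full 300-base windows of the RefSeq table, 297 bases in a row were identical, while Hba-x shared a run of 10 bases with Hba-a1. Hbb-y and Hbb-bs shared a run of 12. The comparison covers these windows and not the transcripts, so it does not show whether reads map to both copies. Both strands were searched, and no matches overlapped. CACCC stood in 5 of the 5 stretches, against 31.7% of 32851 stretches of the same length before annotated starts. TATAA stood in 4 of the 5 (11.8% of all) and CCAAT in 4 of the 5 (21.3%), while GATAA stood in 1 of the 5, that of Hba-x (10.5%). Only exact letters were counted. The stretch of Hbb-y, which holds cataaaa near its end, is thus not shown to lack a TATA box. The TATA box, CCAAT box and Krüppel-like factor box motifs stood together in 3 of the 5, those of Hba-a1, Hba-a2 and Hbb-bs, and in 0.688% of all stretches. As the stretches of Hba-a1 and Hba-a2 are copies, their matches are not separate ones in any of these counts. These matches are descriptions of the letters and not evidence of binding. The RefSeq tables used here held windows for 5 of the 9 symbols, of which Alas2 is not shown and was not counted above. Hbb-bs, which is not among the 9 symbols, is shown for the locus it shares with Hbb-b1. Windows of Hbb-bt, Hbq1a and Hbq1b, also outside the 9 symbols, were not counted, so the counts are for a chosen set.

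Hbb-y, the embryonic epsilon-like chain of primitive red cells, was the most abundant embryonic globin. It had 244 and 508 FPKM in cKO 1 and 2, against 301, 273 and 297 FPKM in controls 1 to 3. cKO 2 stood 1.69 times above the highest control and 2.08 times above cKO 1, and cKO 1 stood below every control, so the cKO libraries lay on either side of the controls. The mean was 376 ± 187 FPKM in the cKO (SD, n = 2) and 290.2 ± 15.1 FPKM in the controls (SD, n = 3). The log2 change was 0.28 (SE 0.33, 95% interval -0.53 to 1.09, limma adjusted p = 0.745). Without cKO 2 it was -0.25 (limma adjusted p = 0.999), and without cKO 1 it was 0.81 (limma adjusted p = 0.402), so the sign of the change depended on which cKO library was kept. Each of these fits has 1 cKO library, whose spread is taken to be that of the controls. The authors' deposited table gave Hbb-y a log2 fold change of 0.37, with an unadjusted p of 0.0362 and a q-value of 0.267.

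Hbb-bh1, the beta-like chain that primitive red cells make early and then replace by Hbb-y as they mature, was close to the filter of a mean of 1 FPKM. It had 2.82 and 2.01 FPKM in the cKO libraries, against 2.95, 3.44 and 2.09 FPKM in controls 1 to 3. The groups overlapped, and the log2 change was -0.16 (SE 0.23, limma adjusted p = 0.802).

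Hba-x, the zeta chain that pairs with embryonic beta-like chains, had 74.6 and 44.97 FPKM in cKO 1 and 2. The controls had 43.2, 78.6 and 52.8 FPKM. Control 2 was the highest library and cKO 1 the next, and both groups spanned nearly the same range. The mean was 59.8 ± 20.9 FPKM in the cKO and 58.2 ± 18.3 FPKM in the controls (SD, n = 2 and 3), and the log2 change was 0.04 (SE 0.33, 95% interval -0.79 to 0.86, limma adjusted p = 0.969). The embryonic globins did not move together across libraries, since cKO 2 was the highest library for Hbb-y and stood below 3 of the other libraries for Hba-x.

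The adult beta globins were the most even of the globins across libraries. The joint locus of Hbb-b1 and Hbb-bs, both genes of adult beta chains, had 874 and 877 FPKM in the cKO libraries, against 771, 899 and 884 FPKM in controls 1 to 3. Both cKO values lay inside the control range, and the highest of the 5 libraries was 1.17 times the lowest. The log2 change was 0.04 (SE 0.18, 95% interval -0.41 to 0.50, limma adjusted p = 0.931). The locus named Hbb-b2, after an adult minor beta chain, had 382 and 449 FPKM in the cKO libraries, against 362, 392 and 444 FPKM in controls 1 to 3. Its log2 change was 0.06 (SE 0.18, 95% interval -0.39 to 0.51, limma adjusted p = 0.909), and it was -0.01 without control 1 and -0.06 without cKO 2. Mouse strains carry either the pair Hbb-b1 and Hbb-b2 or the pair Hbb-bs and Hbb-bt. In the RefSeq positions of GRCm38, chromosome 7 holds Hbb-bt and then Hbb-bs, and neither Hbb-b1 nor Hbb-b2 is placed on it. The table held no locus named Hbb-bt, and its Hbb-b2 locus comes just before the joint locus, as Hbb-bt comes before Hbb-bs. The Hbb-b2 locus may thus be that of Hbb-bt. With the strain unknown, the values of these loci cannot be assigned to the genes of a given strain.

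**Figure D1:**
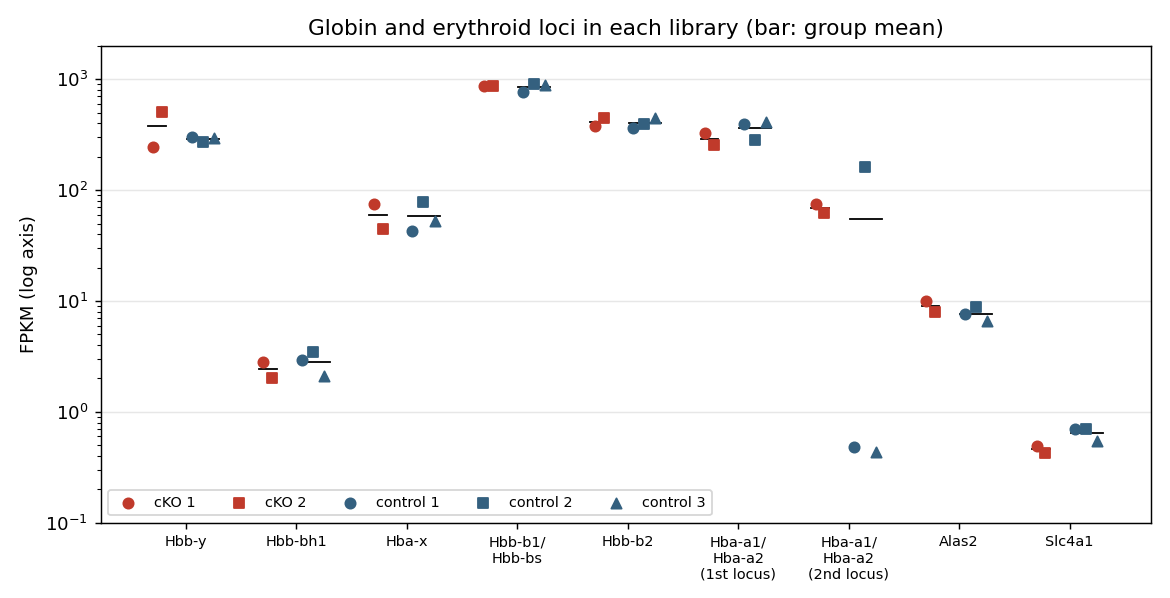
FPKM of the 9 loci (y axis, log scale) in each library, with the cKO left of the controls for each locus and a bar at each group's arithmetic mean. Hbb-y stood apart in cKO 2 at 508 FPKM, the adult beta loci were even, and the second Hba-a1/Hba-a2 locus was at 0.480 and 0.434 FPKM in controls 1 and 3.

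The adult alpha globin genes Hba-a1 and Hba-a2, whose starts lie 12820 bases apart, could be read only as a sum. The first joint locus had 326 and 254 FPKM in cKO 1 and 2, against 397, 281 and 416 FPKM in controls 1 to 3. The second had 75.05 and 61.9 FPKM in cKO 1 and 2, against 0.480, 163 and 0.434 FPKM in controls 1 to 3. The second locus thus held 18.7% and 19.6% of the adult alpha FPKM in the cKO libraries, against 0.121%, 36.8% and 0.104% in the controls, and the controls lay on both sides of the cKO. Its log2 change was 3.30 (SE 2.17, 95% interval -2.14 to 8.73, limma adjusted p = 0.615). Without control 2 the change was 5.57 (SE 0.17, limma adjusted p = 0.000601), and the locus passed over all loci. Across its alternatives the adjusted p ranged from 0.000601 to 0.999.

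The sum of both loci did not show that gap. It was 401 and 316 FPKM in cKO 1 and 2, against 398, 444 and 416 FPKM in controls 1 to 3, so cKO 1 lay within the control range and cKO 2 below it. The mean was 359 ± 60.5 FPKM in the cKO and 419 ± 23.1 FPKM in the controls (SD, n = 2 and 3). With the loci summed, an alternative added after the data were seen, the log2 change was -0.23 (SE 0.18, 95% interval -0.68 to 0.22, limma adjusted p = 0.644). The authors' deposited table gave the first locus a log2 fold change of -0.33 (q-value 0.390) and the second one of 0.32 (q-value 0.705). These compare arithmetic means of FPKM, in which, at the second locus, control 2 weighs more than in means of log2(FPKM + 1). How the authors' tools divided reads between these copies is not given in the sources used here and was not tested.

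**Figure D2:**
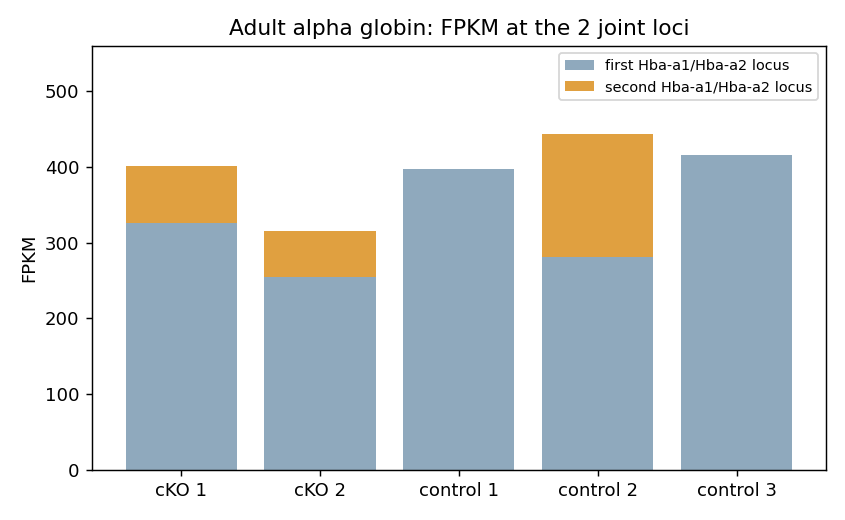
FPKM (y axis) at the first (blue-grey, lower) and second (orange, upper) joint locus of Hba-a1 and Hba-a2, stacked, in each library. The second locus took 18.7% and 19.6% in the cKO libraries and between 0.104% and 36.8% in the controls, while the stacked height was 401 and 316 FPKM in the cKO libraries and between 398 and 444 FPKM in the controls.

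The balance of embryonic and adult chains was read within each library. Hbb-y and Hbb-bh1 made up 16.4% and 27.8% of the beta-like FPKM in cKO 1 and 2, against 21.2%, 17.6% and 18.4% in controls 1 to 3. As for Hbb-y alone, the cKO libraries held both the lowest and the highest share. Hba-x made up 15.7% and 12.5% of the alpha-like FPKM in cKO 1 and 2, against 9.79%, 15.1% and 11.3% in controls 1 to 3, and the groups overlapped. The log2 ratio of embryonic to adult FPKM differed by 0.23 for the beta-like chains and by 0.27 for the alpha-like chains, cKO minus control. The SD of the controls was 0.17 and 0.36 on that scale. Without cKO 2 the beta-like difference was -0.25, and without cKO 1 it was 0.71.

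The alpha-like sum was smaller than the beta-like sum in every library. Their ratio was 0.317 and 0.196 in cKO 1 and 2, against 0.307, 0.333 and 0.288 in controls 1 to 3. cKO 2 stood below every other library on this ratio, with both its high Hbb-y and its low Hba-a sum in it, while cKO 1 lay among the controls.

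**Figure D3:**
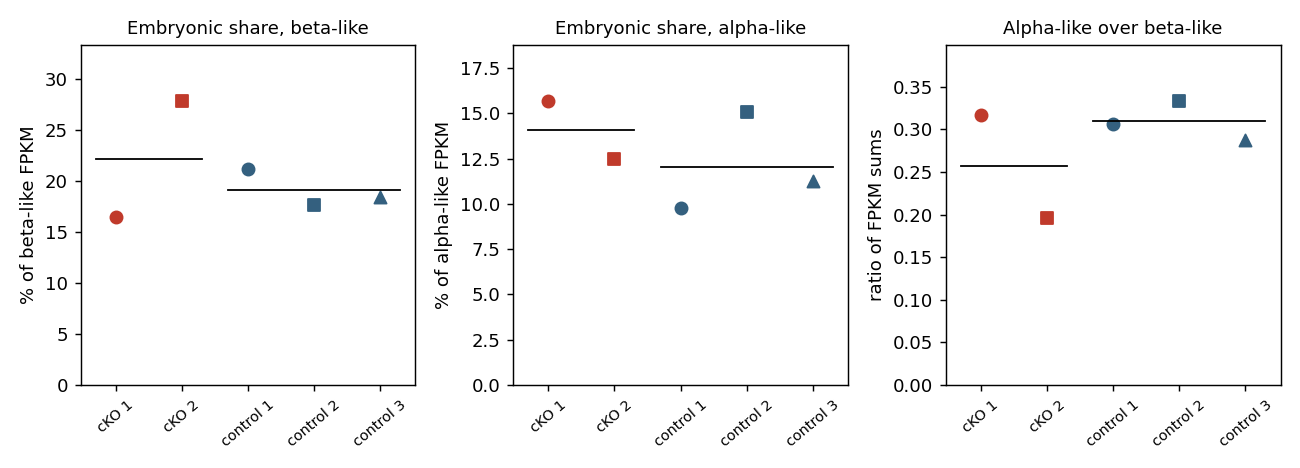
Embryonic share of the beta-like FPKM (left), embryonic share of the alpha-like FPKM (middle) and ratio of the alpha-like to the beta-like FPKM sum (right) in each library, with lines at the group means. cKO 2 had the highest beta-like embryonic share at 27.8% and the lowest ratio at 0.196, and cKO 1 had 16.4% and 0.317.

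Alas2, the erythroid enzyme of the first step of heme synthesis, is encoded on the X chromosome. It had 9.92 and 8.04 FPKM in the cKO libraries, against 7.56, 8.90 and 6.59 FPKM in controls 1 to 3. cKO 1 was the highest library, and cKO 2 lay inside the control range. The mean was 8.98 ± 1.33 FPKM in the cKO and 7.68 ± 1.16 FPKM in the controls (SD, n = 2 and 3), and the log2 change of 0.20 (SE 0.18, 95% interval -0.24 to 0.64) did not pass (limma adjusted p = 0.674). Slc4a1, which encodes the band 3 anion exchanger of the red cell membrane (chr11:102348820-102365281 in GRCm38), was under the filter and was not tested. It had 0.494 and 0.427 FPKM in the cKO libraries, against 0.696, 0.705 and 0.545 FPKM in controls 1 to 3. Both cKO values lay below every control, as was true of 15.6% of the tested loci. Fitted with no filter, its log2 change was -0.17 (limma adjusted p = 0.641). The authors' deposited table gave it a log2 fold change of -0.49 with a q-value of 0.692.

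By level, the joint locus of Hbb-b1 and Hbb-bs stood first in every library. Hbb-b2, Hbb-y and the first Hba-a locus followed and changed places between libraries, so their order was not beyond their spread. Hba-x came next among the loci with 1 gene, followed by Alas2, Hbb-bh1 and Slc4a1, and these steps did not overlap in any library.

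Other globins were low. The theta-like genes Hbq1a and Hbq1b were under 0.7 FPKM in every library, Hbb-bh2 was listed at 0 in all 5, and Ngb, the globin of neurons, and Mb, that of muscle, were not tested. Cygb, a globin found outside blood, was the tested member of this list of 9. It had 8.05 and 4.79 FPKM in the cKO libraries, against 9.84, 12.3 and 9.40 FPKM in controls 1 to 3. Both cKO values lay below every control, as was true of 15.6% of the tested loci. Its log2 change was -0.66 (SE 0.24, limma adjusted p = 0.575), which did not pass. Its unadjusted p was under 0.05, as for 7.45% of all tested loci.

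Gata1, Klf1 and Rhag, genes of red cell precursors named after their values were seen, were low in these libraries, beside a globin sum of at least 1877 FPKM in every library. Other erythroid genes were not low. Of the 63 genes found from the 4 erythroid lists described next, 41 averaged at least 1 FPKM. Lmo2 had 14.4 and 13.4 FPKM in the cKO libraries and between 12.3 and 12.9 FPKM in the controls. Alas2 had at least 6.59 FPKM in every library. Gata1, the master transcription factor of red cell precursors, was at 0.0752 and 0.0241 FPKM in the cKO libraries, against 0, 0 and 0.108 FPKM in controls 1 to 3. Klf1, the factor that activates adult beta globin, was at 0.405 and 0.208 FPKM in the cKO libraries and between 0.436 and 0.710 FPKM in the controls. Both cKO values lay below every control, as was true of 15.6% of the tested loci. Klf1 was under the filter and was not tested. Rhag, a red cell surface protein gene, was at 0 and 0.0388 FPKM in the cKO libraries and listed at 0 in every control.

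Over 4 lists of heme synthesis, erythroid transcription factors, red cell membrane and red cell enzymes, 41 of 66 genes were tested and none was called by limma. Of these 41, both cKO libraries lay above every control in 8 (19.5%, against 13.4% of all tested loci). In 5 they lay below every control (12.2%, against 15.6% of all). At an unadjusted p under 0.05 there was 1 of the 41, Klf3, a Krüppel-like repressor, against 7.45% of all tested loci. The authors' deposited table marked 2 of the genes significant, Tal1 and Gata2, both as lower, against 4.21% of all loci that the authors tested.

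Heme synthesis genes, which every cell uses, had a median log2 change of 0.06 over 12 tested genes, with 7 positive. Both cKO libraries lay above every control in 2 and below in 3, against 13.4% and 15.6% of all tested loci. Urod, the uroporphyrinogen decarboxylase, had 32.9 and 32.02 FPKM in the cKO libraries, against 28.5, 52.5 and 34.3 FPKM in controls 1 to 3. The mitochondrial glycine carrier Slc25a38 had 27.8 and 26.1 FPKM in the cKO libraries, against 21.1, 30.2 and 25.99 FPKM in controls 1 to 3. Uros, the uroporphyrinogen synthase, had 22.6 and 18.4 FPKM in the cKO libraries, against 19.9, 18.2 and 18.7 FPKM in controls 1 to 3. For these 3 genes the groups overlapped.

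Red cell membrane genes had a median log2 change of 0.10 over 8 tested genes, and red cell enzyme and iron genes one of 0.17 over 10. Many of the tested members are also expressed by neural cells. Cd24a, a surface protein of red cell precursors and young neurons, had 481 and 579 FPKM in the cKO libraries, against 463, 402 and 409 FPKM in controls 1 to 3, and did not pass (log2 change 0.32, SE 0.18, limma adjusted p = 0.576). Cd47 had 21.8 and 19.6 FPKM in the cKO libraries, against 19.6, 13.7 and 12.7 FPKM in controls 1 to 3. Add2, the beta adducin of the membrane skeleton, had 87.4 and 69.9 FPKM in the cKO libraries, inside which all 3 controls lay. The peroxidase gene Prdx2, abundant in red cells, had 803 and 801 FPKM in the cKO libraries, against 639, 1015 and 806 FPKM in controls 1 to 3. Bpgm, the red cell enzyme that makes bisphosphoglycerate, had a log2 change of 0.22 and catalase (Cat) one of -0.10, and neither passed (limma adjusted p = 0.696 and 0.771).

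Of the erythroid transcription factors, 11 of 16 were tested, with a median log2 change of -0.28. Without control 1 the median was 0.00 over the genes that still passed the filter, which Tal1 and Gata2 then did not, so the medians are not over the same genes. Tal1, a factor of blood precursors, had 0.409 and 0.474 FPKM in the cKO libraries, against 20.4, 0.420 and 0.573 FPKM in controls 1 to 3. Its partner Gata2 had 0.305 and 0.254 FPKM in the cKO libraries, against 7.39, 0.349 and 0.264 FPKM in the controls. Zfpm1, the cofactor of GATA factors, had 3.66 and 2.26 FPKM in the cKO libraries, against 10.04, 4.84 and 3.33 FPKM in the controls. For Tal1 and Gata2 the other controls were at the level of the cKO libraries. The authors' deposited table marked both as lower (log2 fold changes of mean FPKM of -4.02 and -3.25, each with a q-value of 0.00331). Limma did not, with log2 changes of -1.33 and -0.92 (limma adjusted p = 0.692 and 0.696).

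Tal1 and Gata2 also act in inhibitory neurons of the midbrain and thalamus, and genes of those regions stood with them in control 1. Over 12 such genes, picked after their values were seen and so given no test, FPKM summed to 16.98 and 21.5 in the cKO libraries, against 390.1, 15.6 and 33.9 in controls 1 to 3. Gata3 had 21.7 FPKM in control 1 and at most 0.287 FPKM in the other 4 libraries. En1, a midbrain factor, had 19.02 FPKM in control 1, was listed at 0 in both cKO libraries and control 2, and had 0.0293 FPKM in control 3. The authors' deposited table marked 9 of the 12 as lower, among them Lhx9, Otx2 and Tcf7l2, and all 9 were highest in control 1. The globin sum of control 1 was the lowest of the 5 at 1877 FPKM. As a share of library FPKM, the member loci were lowest in control 2 (0.434%), with 0.447% in control 1 and 0.448% in cKO 1. Whether the tissue makeup of control 1 has a part in the globin values was not tested.

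**Figure D4:**
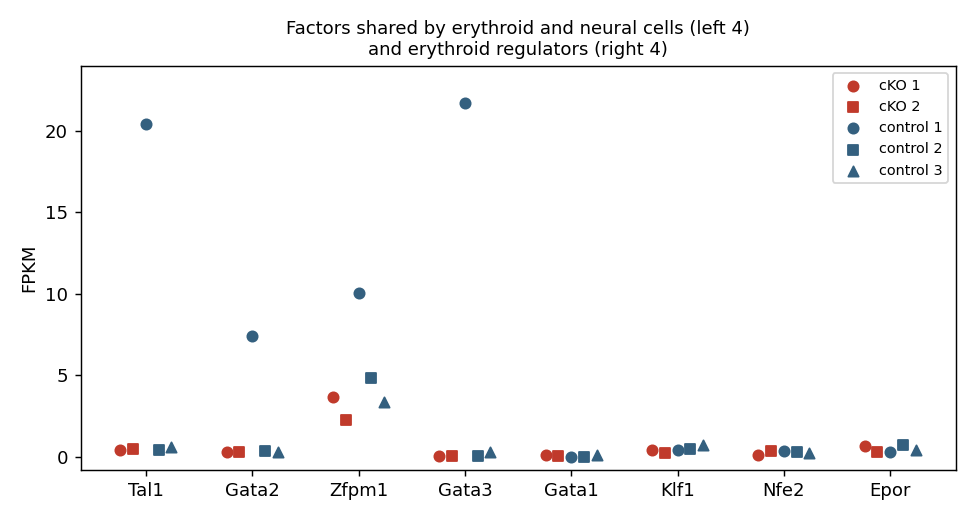
FPKM of 8 regulators in each library, with cKO libraries left of the controls for each gene. Tal1, Gata2, Zfpm1 and Gata3 stood high in control 1, at 20.4, 7.39, 10.04 and 21.7 FPKM. The erythroid regulators Gata1, Klf1, Nfe2 and Epor, chosen after their values were seen, stayed under 0.75 FPKM in every library.

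The remaining erythroid factors named were Bcl11a, the repressor of embryonic and fetal globin genes, Ldb1, the scaffold of the Gata1 and Tal1 complex, and Sox6, a partner of Bcl11a. All are also expressed by neural cells. Bcl11a had 117 and 98.2 FPKM in the cKO libraries, against 101, 109 and 106 FPKM in controls 1 to 3. Sox6 had 15.3 and 16.8 FPKM in the cKO libraries, against 11.2, 14.1 and 14.54 FPKM in the controls, and did not pass (limma adjusted p = 0.585). Ldb1 had 167 and 105 FPKM in the cKO libraries, against 158, 230.1 and 198 FPKM in the controls, with a log2 change of -0.54 (SE 0.27, limma adjusted p = 0.575).

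Genes that clear hemoglobin, heme and iron had a median log2 change of -0.07 over 9 tested genes, and none was called by limma. At an unadjusted p under 0.05 there was 1 of the 9, against 7.45% of all tested loci. That gene was Slc40a1, the iron exporter ferroportin, at 5.28 and 5.82 FPKM in the cKO libraries, against 4.004, 2.89 and 3.07 FPKM in controls 1 to 3 (log2 change 0.61, SE 0.18, limma adjusted p = 0.575). Hmox1, the inducible heme oxygenase, had 5.14 and 5.11 FPKM in the cKO libraries, against 1.98, 4.29 and 4.13 FPKM in the controls. Slc40a1, Hmox1 and Blvra were the 3 of 9 genes with both cKO libraries above every control, against 13.4% of all tested loci. Slc48a1 and Hmox2 were the 2 with both below every control, against 15.6% of all. Slc48a1, a heme transporter, had 16.1 and 14.1 FPKM in the cKO libraries, against 18.3, 17.9 and 17.1 FPKM in controls 1 to 3. Hmox2, the constitutive heme oxygenase, had 30.9 and 25.96 FPKM in the cKO libraries, against 31.2, 36.8 and 33.1 FPKM in the controls. These 5 genes were named after their values were seen. The ferritin chains Fth1 and Ftl1 and the receptor gene Lrp1 overlapped between groups, with log2 changes of 0.10, -0.08 and -0.07.

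Cells of the vessel wall and other blood cells gave the frame for these values. Endothelial genes had a median log2 change of -0.02 over 16 tested genes, and their FPKM summed to 162 and 164 in the cKO libraries, against 157, 190.2 and 154 in controls 1 to 3. Claudin 5 (Cldn5), of the blood-brain barrier, had 39.7 and 38.97 FPKM in the cKO libraries, against 34.4, 44.1 and 31.4 FPKM in the controls. Slc2a1, the glucose transporter, had a log2 change of -0.01 and Mfsd2a, a lipid transporter of the barrier, one of -0.32, and neither passed (limma adjusted p = 0.971 and 0.581). Pericyte genes summed to 45.3 and 50.8 FPKM in the cKO libraries, against 44.5, 35.02 and 32.8 FPKM in the controls. In 4 of their 6 tested members (Rgs5, Kcnj8, Abcc9 and Cspg4) both cKO libraries lay above every control, against 13.4% of all tested loci, and in none below. The median log2 change was 0.13, and limma called none. At an unadjusted p under 0.05 there was 1 of the 6, against 7.45% of all tested loci. Rgs5 was marked as higher in the authors' deposited table (q-value 0.0241), where 4.21% of all loci that the authors tested were marked. It had 19.4 and 27.4 FPKM in the cKO libraries, against 15.9, 11.4 and 13.1 FPKM in controls 1 to 3, while limma gave an adjusted p of 0.575. Vtn and Pdgfrb, the other tested members, overlapped between groups and had log2 changes of -0.11 and -0.08.

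Of the platelet and granulocyte genes, 1 of each list passed the filter. Pf4, of platelets, had 1.35 and 1.32 FPKM in the cKO libraries, against 0.655, 1.57 and 0.545 FPKM in controls 1 to 3, and was the tested member of that list. Gp1bb shares its locus with Sept5 and was left out. The granulocyte genes S100a8, Elane and Mmp8 were listed at 0 in all 5 libraries, and Prtn3 was the tested member of that list, at 5.54 and 4.17 FPKM in the cKO libraries and 4.86, 6.02 and 7.00 FPKM in the controls.

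Microglia and macrophage genes did not overlap between groups in their summed level. Their FPKM summed to 121 and 122 in the cKO libraries, against 42.7, 60.9 and 51.4 in controls 1 to 3. In 12 of the 14 tested members both cKO libraries lay above every control, against 13.4% of all tested loci, and the median log2 change was 0.95. Tyrobp, a signalling adaptor of microglia, had 17.4 and 18.8 FPKM in the cKO libraries, against 3.34, 7.56 and 7.62 FPKM in controls 1 to 3. The complement genes C1qc and C1qb had log2 changes of 1.09 and 1.03. Lyz2, the lysozyme of macrophages, had 8.29 and 9.29 FPKM in the cKO libraries, against 0.685, 1.26 and 1.36 FPKM in controls 1 to 3 (log2 change 2.23, SE 0.21, limma adjusted p = 0.131). Limma called none over all loci, with 10 of the 14 at an unadjusted p under 0.05, against 7.45% of all tested loci. The authors' deposited table marked Lyz2, Fcer1g, Tyrobp and Laptm5 as higher, where 4.21% of all loci that the authors tested were marked. The globin sum overlapped between the groups in the same libraries. Whether microglial RNA has a part in the values of single erythroid genes such as Slc40a1 and Hmox1, which macrophages also express, was not tested.

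**Figure D5:**
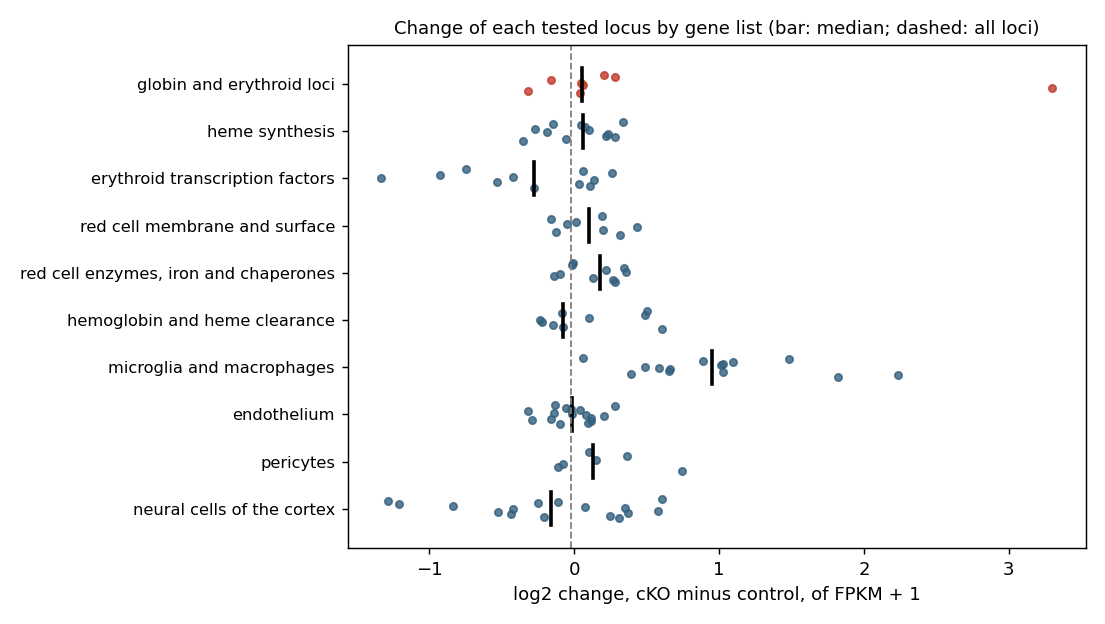
Log2 change of each tested locus (x axis, cKO minus control, FPKM + 1), by list, with a bar at the list's median and a dashed line at the median of all tested loci, -0.02. The globin and erythroid loci had a median of 0.05, with the second Hba-a1/Hba-a2 locus alone at 3.30, and the microglia and macrophage list had a median of 0.95.

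The neural genes of the cortex, the tissue named in the labels, were present in every library, with FPKM summing to 4123 and 3648 in the cKO libraries, against 3824, 4270 and 3990 in controls 1 to 3. Tubb3, the tubulin of neurons, had 1411 and 1101 FPKM in the cKO libraries and between 1324 and 1373 FPKM in the controls. Fabp7, of radial glia, had 714 and 782 FPKM in the cKO libraries and between 604 and 673 FPKM in the controls. Vim, another radial glial gene, had 408 and 444 FPKM in the cKO libraries and between 451 and 816 FPKM in the controls. Of the 16 tested neural genes both cKO libraries lay above every control in 4 (Fabp7, Tbr1, Dcx and Bcl11b) and below in 4 (Vim, Nes, Eomes and Neurog2), against 13.4% and 15.6% of all tested loci. The median log2 change was -0.16, and limma called none. At an unadjusted p under 0.05 there were 4 of the 16, against 7.45% of all tested loci. Dcx, of young neurons, had 195 and 187 FPKM in the cKO libraries, against 163, 107 and 113 FPKM in controls 1 to 3. The authors' deposited table marked Nes, Eomes and Neurog2 as lower and none of the 16 as higher, where 4.21% of all loci that the authors tested were marked.

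The summed globins were nearly even over the 5 libraries, and many loci shared that pattern. Profiles of log2(FPKM + 1), centred on their mean, were compared by their root-mean-square difference. The closest loci were Nrf1 (0.00957), Ubap2l (0.0120), Usp4 (0.0173), Parl (0.0184) and Adck1 (0.0223), and 1096 of the 12672 tested loci lay within 0.1 of the globin profile. Nearness to a nearly even profile means little change between libraries, and shared regulation was not tested.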

How the data were processed

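Total RNA of E14.5 cortex was measured in 2 cKO and 3 control libraries, grouped by title. The submitters' processing notes list MACS, Bowtie2, Cufflinks, TopHat and CASAVA and the build mm10, without versions or roles, and no source used here gives the annotation or the strand setting. The authors deposited 1 value per locus and library, taken here as FPKM from the size of the values, the XLOC identifiers and the naming of Cufflinks, since the header does not state it. Beside it stand the authors' deposited comparison: group means, log2 fold change, p-value and q-value, and a test statistic, which is a score, per the file headers. FPKM is relative to the library total, so each locus depends on all others. Read depth could not be recovered: among loci under 0.05 FPKM the commonest ratio to control 1 held 21.03% to 56.02% of loci.

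All loci averaging 1 FPKM or more (12672) were fitted as log2(FPKM + 1) with limma 3.58.1 in R 4.3.3, with an intensity trend and Benjamini-Hochberg adjustment. There were 3 residual and 2.49 prior degrees of freedom. The procedure was tested on simulated data with planted changes larger than those of most member loci. It therefore does not show how well changes of the size seen here would be found. Sums and ratios over globins were given no test. The members and lists were chosen with earlier results of these data known. Named genes were the members, Chd8, the 3 most abundant tested members of each of 12 lists, list members called or marked significant, and the 5 loci nearest to the globin profile. Other names were chosen after their values were seen, and so were the 12 midbrain and thalamus genes. The alternatives were leaving out each library, another pseudocount, filter, scaling and variance model, the replicate number as a block, and, added after the data were seen, the Hba-a loci summed.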

Additional observations from a re-analysis of the deposited data

How the results depend on the processing

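No member locus passed the test over all loci under the 13 alternatives, except the second Hba-a1/Hba-a2 locus without control 2 (between 0 and 1 member called when a library was left out). Of 102 recomputed member changes, 93 kept their direction. That count includes fits with another filter or variance model, which cannot change a direction. All 9 reversals came from leaving out a library or from the replicate block. Hba-x was -0.009 with the replicate number as a block and ranged from -0.321 to 0.396 when a library was left out. On leaving out a library, Hbb-b2 ranged from -0.059 to 0.175, the Hbb-b1/Hbb-bs locus from -0.026 to 0.085, Hbb-bh1 from -0.329 to 0.014 and Hbb-y from -0.246 to 0.808. The log2 embryonic to adult ratio ranged from -0.254 to 0.713 for beta-like and from 0.080 to 0.470 for alpha-like chains. Over all loci 6 passed, against 9 to 37 when a library was left out (37 without cKO 2, 25 without cKO 1, 15 without control 1, 14 without control 2) and 3 with the replicate block. Fits without a cKO library take their spread from the 3 controls alone, so their counts do not compare with the rest. The cause was not tested. The labels do not say that the numbers 1 and 2 pair libraries. The deviations of same-numbered libraries from their group means had correlations of -0.067 and -0.109. With 2 cKO libraries, the deviations of cKO 2 mirror those of cKO 1, so these values cannot decide on pairing. Control 3 has no partner, so the block gives each locus the change found without control 3; it called no member. Hbb-bs shares its locus with Hbb-b1, so the ratio with Hbb-b1 alone was not run. Hbb-bh1 fell below the filter of 5 FPKM. Scaling by the sum without the members moved the median of all loci by 0.05. With 2 cKO libraries, the intervals of single loci span changes of the size seen between libraries of a group.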
